A study of Mus musculus with 4 samples.

Results

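The nephric and mesonephric regulators described here are 9 genes, Pax2, Pax8, Lhx1, Six2, Eya1, Sall1, Gdnf, Gfra1 and Ret, taken by symbol from the 40999 gene rows of each library. All 9 were present in the 4 libraries, and none was at 0 in any of them. Total RNA from embryonic gonads of wild-type C57BL/6J mice was profiled on each embryonic day from E11.5 to E14.5, with 1 stranded library per time point. Each library was made from a pool of XX and XY gonads from more than 1 litter, so neither the sexes nor the embryos can be told apart. Nothing was treated or mutated in any group. At E11.5 the whole genital ridge with its mesonephros was collected, whereas from E12.5 onwards the gonads were freed of the mesonephros. A difference from E11.5 thus joins 1 day of development with a change of dissection, and these cannot be told apart. In these bulk libraries, fewer cells of a type and less RNA per cell cannot be told apart either.

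The mesonephros is the transient embryonic kidney next to the gonad. It holds the nephric (Wolffian) duct, the mesonephric tubules and a surrounding mesenchyme. Pax2, Pax8 and Lhx1 encode transcription factors that set up the nephric lineage in the intermediate mesoderm. Six2, Eya1 and Sall1 encode nuclear factors of the mesenchyme that gives rise to nephrons. Gdnf is a secreted ligand that binds the co-receptor Gfra1 and thereby activates the receptor tyrosine kinase Ret, a signal best known for drawing the ureteric bud out of the nephric duct.

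The libraries held between 25593453 and 31752562 counts. Nuclear rRNA took 9.06% of the counts at E11.5, 1.31% and 1.03% on the next days, and 40.7% at E14.5. Counts were therefore scaled with trimmed mean of M values (TMM), and levels between genes are given as TMM-scaled RPKM, the counts divided by exon length and scaled library size. With 1 library per time point there is no replicate error and no test between conditions. Every interval below is an exact 95% counting interval, and a comparison is between libraries. A gene was called up-regulated or down-regulated when its TMM-scaled fold change was at least 2-fold, a log2 fold change (logFC) of at least 1 in size, and its interval excluded no difference. Levels and directions at E14.5 hold on the TMM scale. On the deposited TPM, whose total includes rRNA, E14.5 was the lowest library for all 9 regulators. The 4 comparisons share libraries, so their values are given side by side and not as independent evidence. Gonad somatic markers were present in every library, with a summed level of 796 TMM-scaled CPM, the same measure without the division by length, at E11.5 and 1415 to 1618 CPM later. The E11.5 sum includes Wt1 (315 CPM) and Emx2 (89.5 CPM), which are also on nephric lists below, so it is not specific to gonad cells.

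At E12.5, 6 of the 9 regulators were down-regulated relative to E11.5, and 1 was up-regulated. Over all 19215 genes tested in this comparison, 8.24% were called lower and 8.01% higher. Six2 fell most (logFC -6.50), followed by Pax2 (-4.53), Sall1 (-3.38), Gfra1 (-2.61), Ret (-2.51) and Eya1 (-2.50). Gdnf rose (logFC 1.47), while Pax8 (-0.81) and Lhx1 (0.65) stayed within 2-fold. The median logFC of the 9 regulators was -2.51, beside 0.0043 for all tested genes. In edgeR's exact test with a coefficient of variation preset to 0.4, 3 of the falls (Six2, Pax2 and Sall1) were called and the rise of Gdnf was not.

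**Figure D1:**
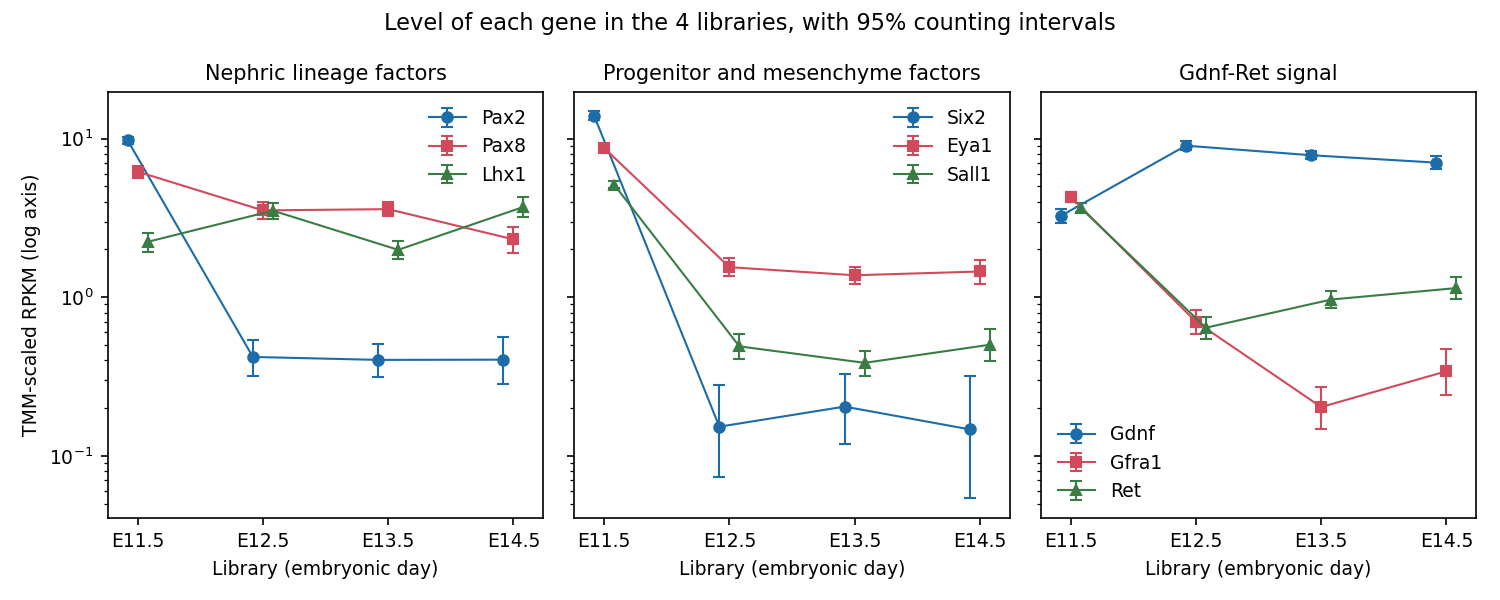
Level of each regulator (TMM-scaled RPKM, log axis) in the 4 libraries by embryonic day, in 3 panels by role, where the bars are exact 95% Poisson intervals that cover counting error only. Pax2, Six2, Eya1, Sall1, Gfra1 and Ret drop between E11.5 and E12.5, Gdnf is above its E11.5 level in the 3 later libraries (at E14.5 not so on deposited TPM, 97.4% of E11.5), and Pax8 and Lhx1 move least.

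Pax2, a paired-box factor of the duct and its derivatives, lies on the + strand at chr19:44745688-44837871 (mm10, as are all gene positions here). It had 1531 counts at E11.5 and 60, 73 and 36 counts in the 3 later libraries. These correspond to 9.76 RPKM (9.27 to 10.3) at E11.5 and to 0.420, 0.403 and 0.404 RPKM later. The E11.5 library stood alone, and the 3 later libraries lay within each other's intervals. Pax2 fell 23.2-fold at E12.5 (logFC -4.53, -4.93 to -4.16), which made it number 71 of 19215 genes by size of fall. The deposited TPM, in which the authors divided counts by exon length and scaled each library to the same total, were 15.0, 0.780, 0.824 and 0.278.

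Pax8, the paired-box factor that acts together with Pax2 and is also needed in the thyroid, lies on the - strand at chr2:24420551-24480095. It had 546, 283, 366 and 116 counts from E11.5 to E14.5. Its levels were 6.19 (5.68 to 6.73), 3.52 (3.13 to 3.96), 3.59 (3.23 to 3.98) and 2.31 (1.91 to 2.78) RPKM. Pax8 was thus highest at E11.5, alike at E12.5 and E13.5, and lowest at E14.5. The difference at E12.5 was 1.76-fold (logFC -0.81, -1.02 to -0.60), outside counting error but short of 2-fold. Its TPM were 9.49, 6.54, 7.34 and 1.59.

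Lhx1, a LIM-homeobox factor of the intermediate mesoderm and nephric duct, lies on the - strand at chr11:84519379-84525534. It had 209, 299, 215 and 197 counts. Per length these were 2.23 (1.94 to 2.56), 3.51 (3.12 to 3.93), 1.99 (1.73 to 2.27) and 3.71 (3.21 to 4.26) RPKM. On this scale E12.5 and E14.5 were the high libraries, E11.5 and E13.5 the low ones, and the intervals of these pairs did not overlap. The place of E14.5 turned with the scaling, from 166% of the E11.5 level with TMM to 93.5% with total counts and 74.5% on the deposited TPM. At E12.5 Lhx1 was 1.57-fold above E11.5 (logFC 0.65, 0.39 to 0.91), which was not called. Its TPM were 3.42, 6.52, 4.07 and 2.55.

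The 3 nephric lineage factors therefore parted company at E12.5. Within a library, the ratio of their counts per kilobase does not depend on scaling or on rRNA. At E11.5, Pax2 stood at 1.58 times Pax8 (1.43 to 1.74). The ratio was 0.119 (0.0887 to 0.158) at E12.5, and it stood at 0.112 and 0.175 in the next libraries. Relative to E11.5 the Pax2 to Pax8 ratio was 13.2-fold lower at E12.5 (9.78 to 18.1), and relative to Lhx1 Pax2 was 36.5-fold lower (26.5 to 50.6).

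Six2, the homeobox factor that keeps nephron progenitors undifferentiated, lies on the - strand at chr17:85684267-85688254. It had 1004 counts at E11.5 and 10, 17 and 6 counts in the following libraries. At 13.9 RPKM (13.1 to 14.8) it was the most abundant of the 9 regulators at E11.5, within the top 10.2% of all gene rows by TPM. Later it stood at 0.153 (0.0732 to 0.281), 0.204 (0.119 to 0.327) and 0.147 (0.0539 to 0.319) RPKM. The later intervals overlapped each other and lay far below E11.5. Six2 fell 90.3-fold at E12.5 (logFC -6.50, -7.58 to -5.63), number 28 of 19215 genes by size of fall. Its TPM were 21.4, 0.284, 0.418 and 0.101.

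Next to Six2, and transcribed away from it, the files list LOC102640971, a locus on the + strand at chr17:85688356-85712949. Neighbours within 2 kb of the regulators were looked up after the values of the regulators were seen. The starts of Six2 and LOC102640971 are 101 bases apart, and they share no exon bases. LOC102640971 had 368 counts at E11.5, then 2, 1 and 0. Its TMM-scaled level at E12.5 was 167-fold lower than at E11.5, with a counting interval of 46.0- to 1388-fold. Both sides of this divergent pair were thus high at E11.5 and held few counts afterwards. The other neighbours of the regulators, Lhx1os and LOC102635919 aside, had at most 16 counts in any library. Gm3134, which overlaps Sall1 on the opposite strand, had 16, 2, 4 and 6 counts, and whether its reads were kept apart from those of Sall1 by strand is not stated.

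Lhx1 has a divergent neighbour too, Lhx1os, on the + strand at chr11:84525660-84535831 with 125 bases between the starts. Lhx1os had 13, 12, 19 and 9 counts, and its E12.5 level differed from E11.5 by a logFC of 0.021 (-1.24 to 1.27). The counts of Lhx1os were too few to show a difference below about that width. In these pairs, then, Six2 and its neighbour were both down-regulated, and Lhx1 and its neighbour were not.

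The sequences upstream of these starts are shown because the starts in the files coincide with RefSeq promoter entries, which held for 2 of the 7 regulators with an entry. Each runs 5′ to 3′ in the direction of the regulator. The bases next to the start that GENCODE M21 annotates as transcribed UTR are left out, 20 for Six2 and 1 for Lhx1. Each thus holds the rest of the gap and the beginning of the neighbour. Motif positions below are counted from the start itself, with the bases left out included. Both come from RefSeq on GRCm38.p6, and capitals mark the motifs found. The Six2 entry is chr17:85688275-85688504 (- strand, 230 bases) and the Lhx1 entry is chr11:84525536-84525784 (- strand, 249 bases).
Six2: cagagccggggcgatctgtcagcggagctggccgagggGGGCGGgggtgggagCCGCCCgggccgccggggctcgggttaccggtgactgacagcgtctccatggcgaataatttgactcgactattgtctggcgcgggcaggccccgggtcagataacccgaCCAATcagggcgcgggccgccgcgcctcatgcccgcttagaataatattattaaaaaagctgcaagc
Lhx1: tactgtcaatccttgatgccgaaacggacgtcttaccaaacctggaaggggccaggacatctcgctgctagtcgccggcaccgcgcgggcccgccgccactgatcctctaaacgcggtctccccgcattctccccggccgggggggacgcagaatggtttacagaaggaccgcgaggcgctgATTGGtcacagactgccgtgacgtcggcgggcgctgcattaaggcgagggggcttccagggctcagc

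In all, 5 motifs were searched on both strands of the 250 bases before each start. The GC box, spelled GGGCGG, was present in 32.7% of the 32851 promoter entries of this length. The CCAAT box, named by its letters, was present in 33.8%. For the TATA box, which is spelled TATAAA, the share was 12.4%. A homeodomain core written as TAATTA occurred in 4.84% of all entries. The rarest was a site of Six2-type factors, searched as TCAGGTTTC, which 0.387% of them held. The Six2 promoter held a CCAAT box 83 to 87 bases before its start, between the divergent starts, and a GC box at 2 positions inside LOC102640971. The Lhx1 promoter held a CCAAT box on the opposite strand, 64 to 68 bases before its start and again between the divergent starts. The other 3 motifs had no match in either promoter, and the GC box had none in that of Lhx1.

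Eya1, a co-activator and phosphatase that partners Six2 and its relatives, lies on the - strand at chr1:14168953-14310241. It had 1439, 232, 262 and 136 counts. Its levels were 8.72 (8.28 to 9.19), 1.55 (1.35 to 1.76), 1.37 (1.21 to 1.55) and 1.45 (1.22 to 1.72) RPKM. The 3 later libraries overlapped, all well below E11.5. Eya1 fell 5.64-fold at E12.5 (logFC -2.50, -2.70 to -2.30). Its TPM were 13.4, 2.87, 2.81 and 0.999.

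Sall1, a zinc-finger factor of the metanephric mesenchyme, lies on the - strand at chr8:89027230-89052979. It had 1401, 122, 122 and 78 counts. Its levels were 5.12 (4.85 to 5.39), 0.490 (0.407 to 0.585), 0.386 (0.320 to 0.460) and 0.502 (0.397 to 0.626) RPKM. As with Eya1, the later libraries overlapped and E11.5 stood above them. Sall1 fell 10.4-fold at E12.5 (logFC -3.38, -3.66 to -3.12). Its TPM were 7.85, 0.909, 0.789 and 0.345.

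All 3 mesenchyme factors were down-regulated at E12.5, yet by different amounts. The Six2 to Eya1 ratio of counts per kilobase was 1.60 (1.47 to 1.73) at E11.5 and 0.0988 (0.0467 to 0.185) at E12.5, which is 16.2-fold lower (8.58 to 34.4). Six2 to Sall1 went from 2.73 to 0.312, or 8.74-fold lower (4.56 to 18.8). Eya1 to Sall1 went the other way, from 1.70 (1.58 to 1.84) at E11.5 to 3.16 (2.52 to 3.96) at E12.5, and it stayed at 3.56 and 2.89 in the next libraries. Six2 was thus the factor with the least left, and Eya1 the factor with the most left.

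Gdnf, the ligand, lies on the + strand at chr15:7811011-7837575. It had 388, 980, 1083 and 478 counts. Its levels were 3.25 (2.93 to 3.59), 9.02 (8.46 to 9.60), 7.85 (7.39 to 8.33) and 7.05 (6.43 to 7.71) RPKM. All 3 later libraries lay above E11.5, with E12.5 highest, except that on deposited TPM E14.5 was at 97.4% of E11.5. Gdnf rose 2.78-fold at E12.5 (logFC 1.47, 1.30 to 1.65), and it was the most abundant of the 9 regulators in each later library. Its TPM were 4.98, 16.7, 16.1 and 4.85.

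Gfra1, the membrane-anchored co-receptor of Gdnf, lies on the - strand at chr19:58235581-58455946. It had 841, 125, 46 and 38 counts. Its levels were 4.29, 0.701 (0.583 to 0.835), 0.203 (0.149 to 0.271) and 0.341 (0.242 to 0.469) RPKM. Gfra1 stepped down both at E12.5 and at E13.5, and the E13.5 and E14.5 intervals overlapped. The falls were 6.12-fold at E12.5 (logFC -2.61, -2.90 to -2.34) and 3.40-fold at E13.5 (logFC -1.77, -2.29 to -1.27). Its TPM were 6.58, 1.30, 0.415 and 0.235. LOC102635919, which lies inside Gfra1 on the same strand without sharing exon bases, had 45, 7, 2 and 1 counts.

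Ret, the receptor tyrosine kinase, lies on the - strand at chr6:118151748-118197744. It had 914, 146, 279 and 162 counts. Its levels were 3.66 (3.42 to 3.90), 0.642 (0.542 to 0.755), 0.966 (0.856 to 1.09) and 1.14 (0.973 to 1.33) RPKM. E11.5 was the high library, and among the others E12.5 was lowest while E13.5 and E14.5 overlapped, although E14.5 was lowest on deposited TPM. Ret fell 5.69-fold at E12.5 (logFC -2.51, -2.77 to -2.26). Its TPM were 5.61, 1.19, 1.98 and 0.786.

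The ligand and its receptors thus moved in opposite directions at E12.5. Per kilobase, Gdnf stood at 0.757 times Gfra1 at E11.5 (0.670 to 0.855) and at 12.9 times (10.7 to 15.6) at E12.5, 38.6 times (28.8 to 53.1) at E13.5 and 20.6 times (14.8 to 29.5) at E14.5. Ret stood at 1.13 times Gdnf at E11.5 (0.999 to 1.27) and at 0.0712, 0.123 and 0.162 times in the later libraries. Ret and Gfra1 kept a similar ratio at E11.5 (0.853, 0.776 to 0.938) and E12.5 (0.916, 0.717 to 1.17). They diverged at E13.5, where Ret was 4.76 times Gfra1 (3.47 to 6.65), and at E14.5, where it was 3.35 times (2.34 to 4.90).

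**Figure D2:**
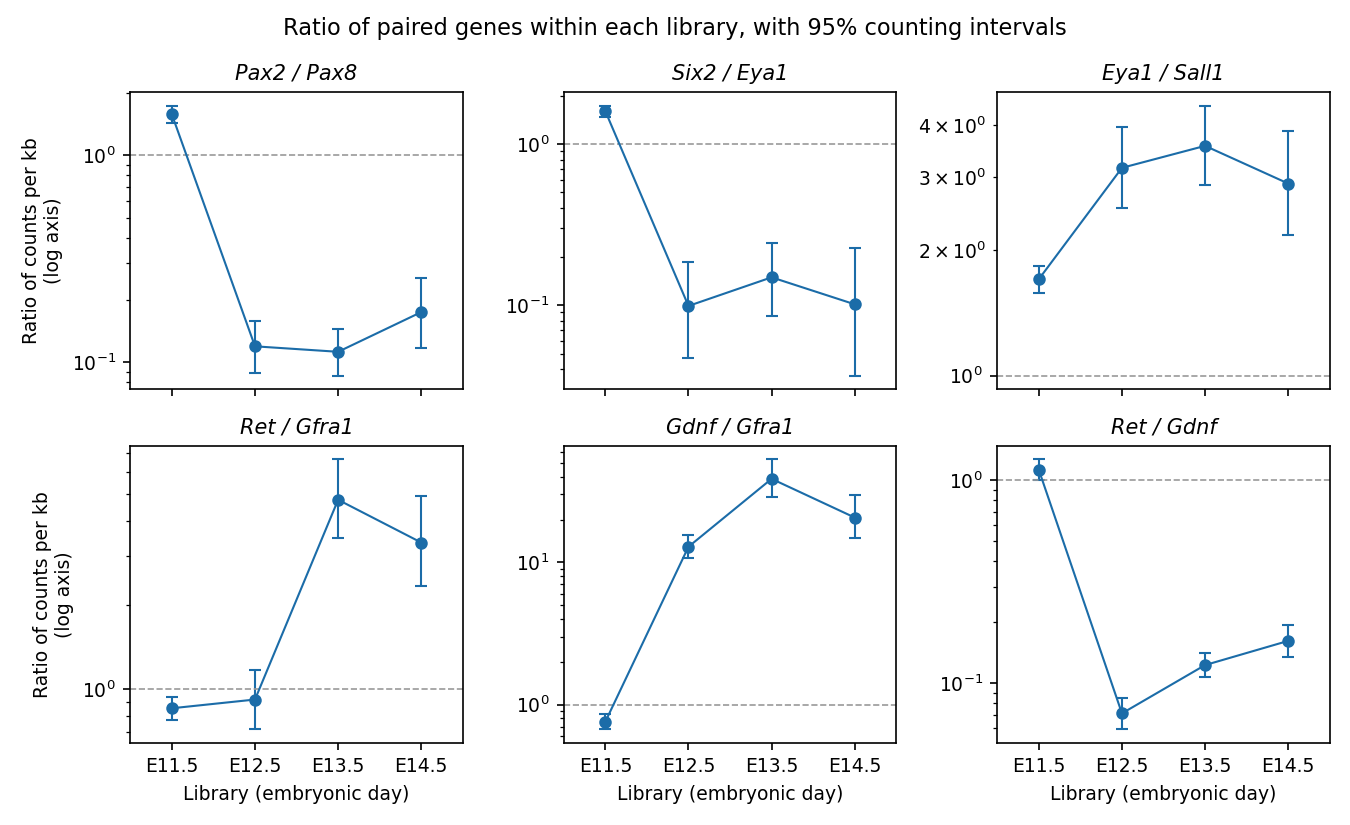
Ratio of counts per kilobase (log axis, a scale of its own in each panel) of 6 pairs of regulators within each library by embryonic day, with exact 95% counting intervals and a dashed line at 1. Pax2 drops against Pax8 and Six2 against Eya1 from E11.5 to E12.5, Gdnf climbs against Gfra1, and Ret parts from Gfra1 only at E13.5.

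The order of the regulators changed with these shifts. By RPKM at E11.5, Six2 stood first, followed by Pax2, Eya1, Pax8, Sall1, Gfra1, Ret, Gdnf and Lhx1, and among neighbours in this order only Ret and Gdnf had overlapping intervals. From E12.5 onwards Gdnf was first, Pax8 and Lhx1 took the next places, and Eya1 followed. Pax8 and Lhx1 overlapped at E12.5, Pax8 stood above Lhx1 at E13.5, and Lhx1 stood above Pax8 at E14.5. Six2 was last at E12.5 and E14.5, and overlapped with Gfra1 in the last place at E13.5 (0.204 and 0.203 RPKM).

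Expressed as a share of the E11.5 level on the same TMM scale, the later libraries held 1.05% to 1.47% of Six2, 4.13% to 4.31% of Pax2 and 7.54% to 9.80% of Sall1. Eya1 was at 15.8% to 17.7%. Gfra1 was at 16.3%, 4.73% and 7.96% from E12.5 to E14.5, whereas Ret was at 17.6%, 26.4% and 31.2%. The shares of Pax2, Six2, Eya1 and Sall1 thus hardly moved after E12.5, and those of Gfra1 and Ret went apart. Pax8 was at 57.0%, 58.0% and 37.4%, Lhx1 at 157%, 89.0% and 166%, and Gdnf at 278%, 242% and 217%.

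After E12.5 few regulators changed. At E13.5, Gfra1 was down-regulated and none was up-regulated, where 1.33% of the 19152 tested genes were called lower and 2.59% higher. Lhx1 (logFC -0.80, -1.06 to -0.54), Ret (0.61, 0.31 to 0.91) and Gdnf (-0.18, -0.31 to -0.056) differed from E12.5 beyond counting error but by less than 2-fold. The call of Gfra1 was lost in edgeR's exact test at a preset coefficient of variation of 0.2 or 0.4. At E14.5 none of the 9 was called against E13.5, where 1.56% of 18992 genes were lower and 5.71% higher. The values nearest the threshold were those of Lhx1 (logFC 0.93, 0.65 to 1.22) and Gfra1 (0.78, 0.13 to 1.44), with Pax8 at -0.60 (-0.91 to -0.29). With total counts and with deposited TPM, Lhx1 (-0.12 and -0.67) and Gfra1 (-0.26 and -0.82) turned to lower. Scaled by total counts instead of TMM, 4 of the 9 were called lower at E14.5, where the median logFC of all tested genes was itself -1.07 and rRNA took 40.7% of the counts.

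Between E12.5 and E14.5 none of the 9 was called, beside 2.59% of 18704 genes lower and 7.74% higher. Gfra1 lay at the threshold (logFC -0.996, -1.56 to -0.46, a 1.99-fold difference), and it was called lower when TMM was taken over all 4 libraries or when DESeq2 size factors were used. Ret was 1.83-fold higher (logFC 0.87, 0.54 to 1.20), but lower with total counts (-0.15) and deposited TPM (-0.60). Pax8 (-0.57, -0.89 to -0.25) and Gdnf (-0.32, -0.48 to -0.16) were lower beyond counting error. The intervals of Pax2, Lhx1, Six2, Eya1 and Sall1 held 0, and for Six2, at 10 and 6 counts, a 2-fold difference in either direction was not detectable at this depth.

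**Figure D3:**
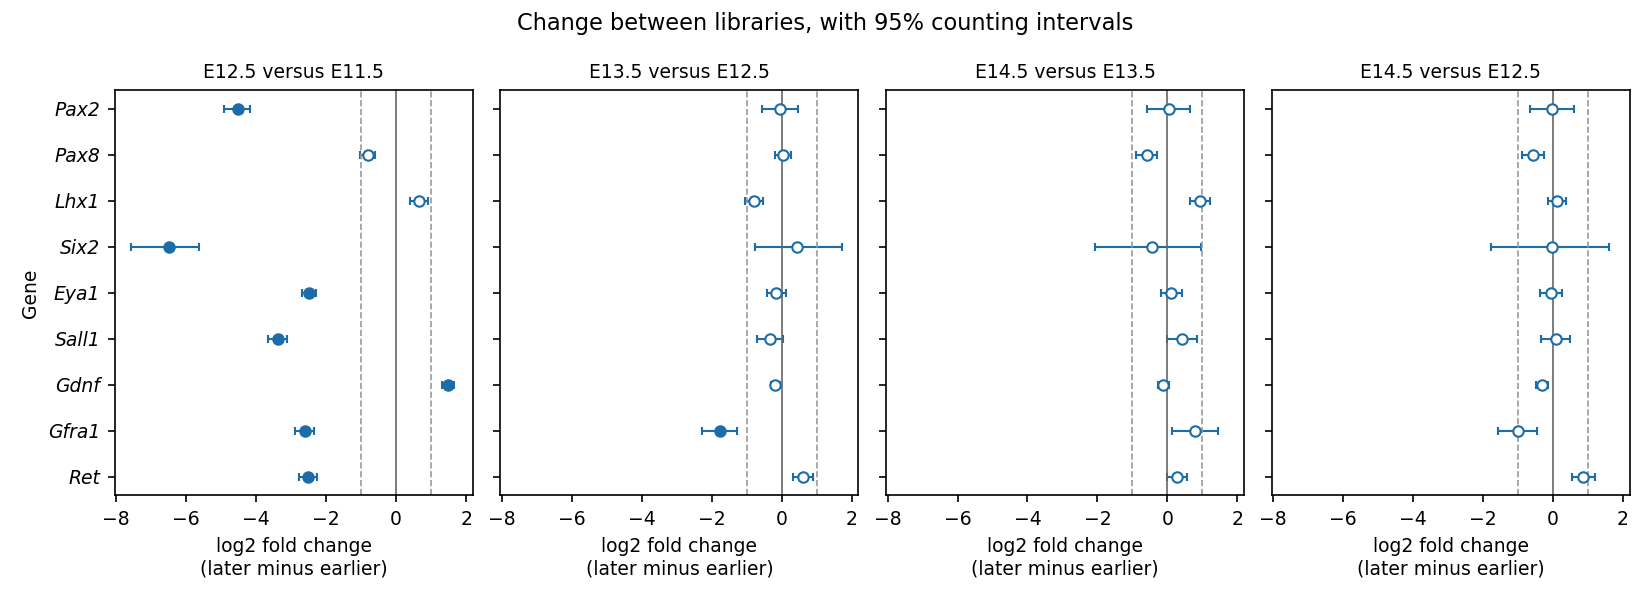
Log2 fold change (later minus earlier library) of each regulator in 4 comparisons, where bars are exact 95% counting intervals, filled points are called, open points are not, and dashed lines mark 2-fold. The first comparison holds 7 called genes, the second holds Gfra1 alone, and the others hold none.

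Other markers of the nephric duct fell alongside. Of the 10 duct genes, all tested, 6 were down-regulated at E12.5 and none up-regulated, with a median logFC of -2.84. Wnt9b, a ligand of the duct epithelium, went from 575 to 10 counts (logFC -5.69). Gata3, a zinc-finger factor of the duct, went from 1078 to 84 counts (-3.54). The summed level of the list was 288 CPM at E11.5 and 165, 146 and 115 CPM later, and no gene of it was at 0. Emx2, also on the gonad somatic list, made up more of that sum than any other gene at E12.5, with 89.5 CPM at E11.5 and 89.6 CPM at E12.5.

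Of 13 tubule genes, 8 were down-regulated and 2 up-regulated at E12.5, with a median logFC of -1.48. Tfap2b, a factor of distal tubules, went from 349 to 7 counts (logFC -5.48), Pou3f3 from 284 to 49 (-2.40) and the cadherin Cdh6 from 2555 to 619 (-1.91). Irx3, an Iroquois homeobox factor, moved the other way, from 219 to 999 counts (2.33). The list summed to 312 CPM at E11.5 and to 207, 257 and 240 CPM later, with no gene at 0.

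The 15 genes of the nephrogenic mesenchyme held 10 that were down-regulated and 1 that was up-regulated at E12.5, with a median logFC of -2.48. Uncx went from 505 to 7 counts (logFC -6.01), Eya4, a relative of Eya1, from 1286 to 28 (-5.38), Hoxa11, a positional homeobox factor, from 446 to 12 (-5.07) and Crym from 123 to 6 (-4.19). Cited1, a transcriptional co-regulator of nephron progenitors, rose from 50 to 213 counts (2.22, named here after its values were seen). The list summed to 765 CPM at E11.5 and to 453, 379 and 297 CPM later. Wt1, which the gonad somatic list also holds, took the largest share of it, and Hoxc11 was at 0 at E14.5. The medians of the duct and mesenchyme lists were thus close to the -2.51 of the 9 regulators, which overlap none of these lists.

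**Figure D4:**
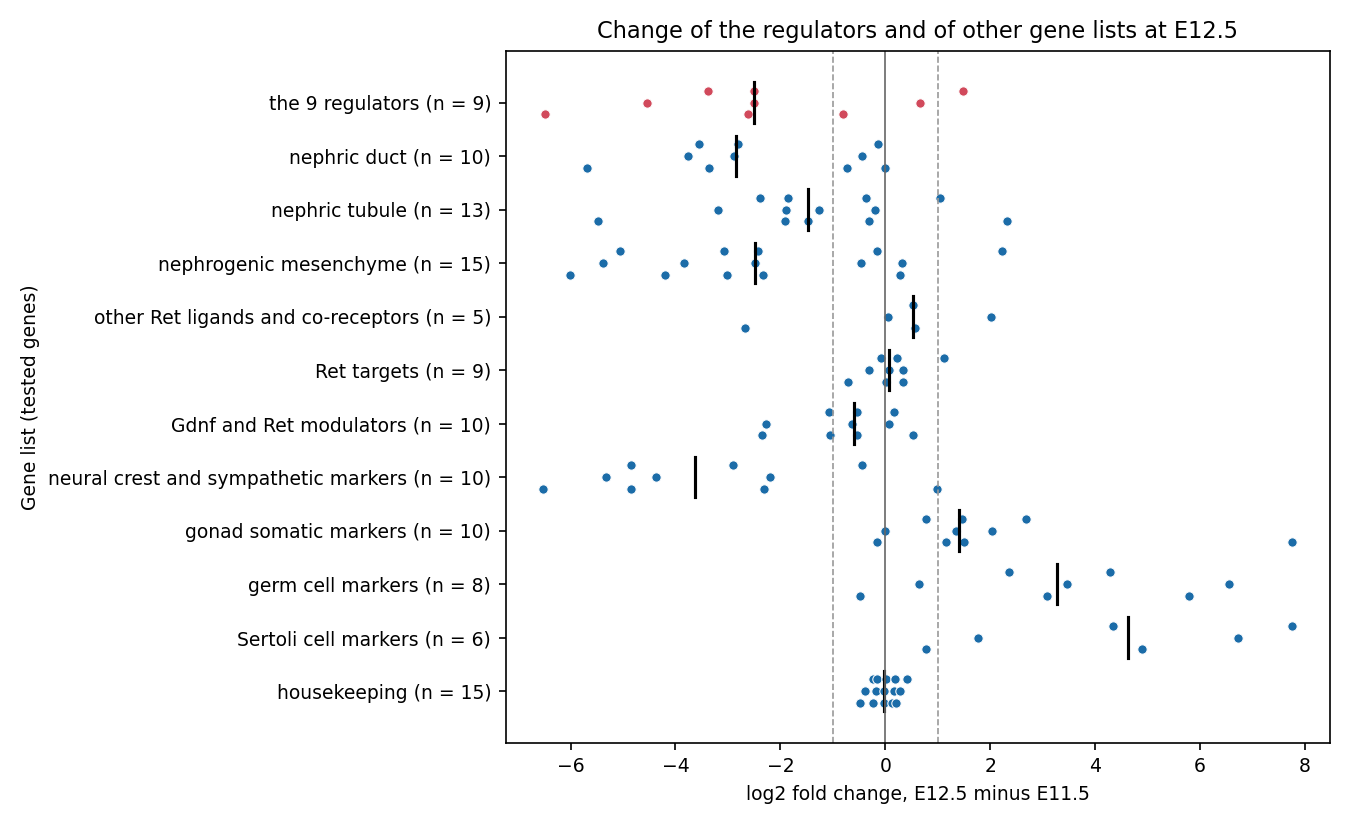
Log2 fold change from E11.5 to E12.5 of the tested genes of 12 lists, 1 point per gene, where black bars are medians and dashed lines mark 2-fold, and genes on several lists are drawn in each. The regulators, the nephric lists and the neural crest list extend to the left, the gonad, germ cell and Sertoli cell lists to the right, and the 15 housekeeping genes sit near 0.

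Ret signalling is read in part through its ligands, co-receptors, targets and modulators. Among the other ligands and co-receptors, 5 of 6 were tested at E12.5. Gfra2, the co-receptor for neurturin, rose from 172 to 630 counts (logFC 2.01), and Gfra3, the co-receptor for artemin, fell from 635 to 90 (-2.68). The ligands Nrtn and Artn and the co-receptor Gfra4 were not called, and Pspn had 1 to 3 counts in every library. Gfra1 and Gfra3 thus fell at E12.5 while Gfra2 rose.

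Of 9 genes known as targets of Ret in the ureteric bud, 1 was up-regulated and none down-regulated at E12.5, with a median logFC of 0.063. Etv5, an ETS-domain factor, rose from 1620 to 3209 counts (logFC 1.12) while Ret itself fell. Etv4, its close relative, went from 425 to 257 counts at E13.5 (logFC -1.05). Between E12.5 and E14.5, 3 of the 9 were down-regulated, namely Etv4 (-1.65), Etv5 (-1.11) and Dusp6, a phosphatase induced by MAP kinase signalling (-1.09). Ret was not called in that comparison.

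Of 11 modulators of the Gdnf and Ret signal, 10 were tested and 4 were down-regulated at E12.5, with a median logFC of -0.59. Bmp4, an inhibitor of bud outgrowth, fell from 892 to 168 counts (logFC -2.27), the growth factor Fgf10 from 461 to 201 (-1.06) and the matrix protein Fras1 from 9909 to 4291 (-1.07). Slit2 and its receptor Robo2, which restrict the Gdnf domain, were not called in any comparison. In the 3 later comparisons none of the 9 tested modulators was called.

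Relatives of the regulators did not share a common direction. Eya4 fell with Eya1, and the low-count Eya2 went from 81 to 7 counts (logFC -3.37, named after its values were seen), while Eya3 was not called. Of the Sall genes, Sall4, a factor of germ cells and stem cells, rose from 617 to 2454 counts (2.13) and Sall2 fell from 3840 to 1716 (-1.03). Of the Lhx genes, Lhx9, a factor of the early gonad, rose from 3543 to 7223 counts (1.16) and Lhx6 fell from 267 to 104 (-1.22). None of 3 tested relatives of Six2 was called at E12.5, and of 2 tested Pax relatives Pax6, named after its values were seen, rose from 3 to 83 counts.

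Markers of other cells moved in the same comparison. Of 10 gonad somatic markers 7 were up-regulated and none down-regulated at E12.5, of 8 germ cell markers 6 were up-regulated, and of 6 Sertoli cell markers 5 were up-regulated. The Sertoli cell genes Amh (logFC 7.76) and Ptgds (6.73) and the germ cell genes Dazl (6.56) and Mael (5.78) rose most. Of 10 neural crest and sympathetic markers 8 were down-regulated, with a median logFC of -3.64, below the -2.51 of the 9 regulators. The falls included Dbh, from 315 to 3 counts (-6.52), and Phox2a, from 116 to 5 (-4.37). That list summed to 63.6 CPM at E11.5 and to 22.0 to 23.4 CPM later, and no marker of it was at 0. Ret, Gfra3 and other Ret pathway genes are also expressed in sympathetic neuroblasts. The part of these cells in the fall of Ret, or in the falls of genes on the nephric lists, was not tested. None of 15 housekeeping genes was called, with a median logFC of -0.017.

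Most other nephric markers were not called after E12.5. At E13.5 against E12.5, 6 of 9 tested duct genes and 9 of 11 tested tubule genes were not called, and Cdh6 stayed at 26.6%, 25.9% and 29.8% of its E11.5 level from E12.5 to E14.5. Cdh16, a kidney cadherin, had 91, 29 and 67 counts from E12.5 to E14.5, and Hnf4a, a proximal tubule factor, had 29, 2 and 10. Both genes were chosen after their values were seen. Cdh16 was called lower at E13.5 (logFC -1.97, -2.63 to -1.36) and higher at E14.5 (2.26, 1.62 to 2.95). Gfra1 was lowest at E13.5 on the TMM scale, and Pax2 stood at 4.31%, 4.13% and 4.14% of its E11.5 level in these libraries. Calb1, a calcium-binding protein of the duct, rose at E13.5 (1.14). Cubn, an endocytic receptor of proximal tubules, was at 206% and 275% of its E11.5 level at E12.5 and E13.5. Cubn then fell at E14.5 (-1.76 against E13.5), to 79.5% of E11.5 on the TMM scale. Between E12.5 and E14.5, Cited1 (1.48) and Osr1, an early nephrogenic factor (1.29), rose on the TMM scale and Foxc1 fell (-1.20). The deposited TPM of Osr1 went from 3.31 to 2.92 in that comparison, against the direction with TMM, and that of Cited1 from 8.41 to 8.46.

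The genes most like each regulator were sought among 14069 genes with at least 100 counts in their highest library, as the distance between centred log2 levels over the 4 libraries. With 4 points that share depth and scaling, this is a description only. Among the genes closest to Pax2 were Hoxa10 (distance 0.286) and Nsg2 (0.401). Closest to Six2 were Dbh (0.379), Tlx2 (0.491) and Foxd1 (0.689). Sall1 was nearest to Prdm6 (0.214), Hoxb4 (0.244) and Hoxa6 (0.258), and Eya1 to Angpt1 (0.105), 5730596B20Rik (0.163) and St6gal2 (0.190). The genes most like these 4 regulators thus include Hox genes and the neural crest marker Dbh as well as kidney genes such as Foxd1.

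Gdnf had its closest match in Gm2274 (0.033), Arap2 (0.069) and Gata4 (0.069), a factor of gonad somatic cells. Pax8 was most like Cdc14a (0.078), Unc5d (0.097) and Rbm24 (0.108). Gfra1 was most like Tmprss2 (0.522), Lmx1a (0.562) and Kcnj16 (0.649), which all were lowest at E13.5 on the TMM scale, as Gfra1 was. Ret was most like Dgkk (0.130), Trpv4 (0.157) and Vwa2 (0.187). Lhx1 had the tRNA gene n-Tw6 (0.292), Smoc2 (0.304) and the tRNA gene TrnQ (0.308) nearest to it. Among the regulators themselves, Eya1 and Sall1 (0.801) and Eya1 and Ret (0.835) were the nearest pairs, and Lhx1 was nearest to Gdnf (1.06).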

How the data were processed

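Gonad RNA was sequenced by the authors as 4 libraries, 1 per time point, mapped to groups by their deposited titles. The authors digested rRNA with RNase H after probe hybridization, tagged molecules with unique molecular identifiers in a stranded kit, aligned reads to mm10 with STAR, removed duplicates with UMI-tools and counted reads per gene with featureCounts. Tool versions, the annotation and the strand setting of the counting are not given in the sources used here. The deposited counts are these deduplicated counts. The deposited TPM and RPKM were computed by the authors from the counts and exon lengths, and the TPM matched the counts and lengths in the files. The deposited RPKM was not used, and RPKM in the text was computed here from TMM-scaled counts.

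Calculations used R 4.3.3, edgeR 4.0.16 and DESeq2 1.42.0, and, for sequences and figures, matplotlib 3.10.9, pandas 2.3.3 and numpy 2.4.6 under Python 3.11.15. TMM scaling used all genes with any count. It was done for each pair of libraries for fold changes, and over all 4 libraries for levels and shares of the E11.5 level. Genes kept by filterByExpr for a pair were tested, and fold changes used the prior count of 0.125 that edgeR's exactTest uses. A call needed a fold of at least 2 and a Clopper-Pearson 95% interval of the counts that excluded no difference. Such intervals cover counting error only. The smallest library held 25593453 counts, and the floor of 3 counts stood, in TMM-scaled CPM, at 0.0881, 0.0969, 0.0763 and 0.155 from E11.5 to E14.5. Levels carry exact Poisson intervals, and ratios within a library exact conditional intervals. The calculation was tested on simulated counts.

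Members and gene lists were chosen with earlier results of these data known. The text names the 9 members, up to 4 called genes of each list and comparison by size of change, provided the higher library had 100 counts or more, and the 3 genes most like each member. Some genes that meet this rule are not reported here. Genes outside it are said to be chosen after their values were seen. Promoters came from RefSeq (GRCm38.p6), with an entry for 7 of the 9 members. Alternatives covered the scaling, prior count, filter, fold and preset dispersions.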

Additional observations from a re-analysis of the deposited data

How the results depend on the processing

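No paired analysis was possible because each time point has 1 library, and leaving out a replicate was not possible for the same reason. No called change of a regulator turned direction under the alternatives run, but changes that were not called did, with total counts and deposited TPM. At E14.5 against E13.5 these were Lhx1 (0.93, then -0.12 and -0.67), Gfra1 (0.78, -0.26 and -0.82), Sall1 (0.41, -0.63 and -1.19), Ret (0.28, -0.77 and -1.33), Eya1 (0.11, -0.94 and -1.49) and Pax2 (0.040, -1.01 and -1.56). Against E12.5 they were Ret (0.87, -0.15 and -0.60), Lhx1 (0.12, -0.90 and -1.35) and Sall1 (0.075, -0.94 and -1.40). At E13.5 the change of Pax2 (-0.044) became 0.078 with deposited TPM. Relative to E11.5, Lhx1 at E13.5 went from 89.0% to 101% with total counts and 119% with deposited TPM, Lhx1 at E14.5 from 166% to 93.5% and 74.5%, and Gdnf at E14.5 from 217% to 122% and 97.4%. At E12.5, 6 of the 9 regulators were called lower and 1 higher. With a fold of at least 4, 0 were called higher, and in edgeR's exact test at a preset coefficient of variation of 0.4, 3 were called lower and 0 higher. At E13.5, 1 was called lower, and 0 were with a fold of at least 4 or in the exact test at 0.2 or 0.4. At E14.5, 0 were called lower against E13.5, but 4 were with total counts and 7 with the ratio of deposited TPM. Against E12.5, 0 were called lower, but 1 was with DESeq2 size factors, 1 with TMM over all 4 libraries, 5 with total counts and 7 with deposited TPM.

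Total counts shifted the median logFC of all tested genes to 0.16 at E12.5, -1.07 at E14.5 against E13.5 and -1.04 against E12.5. The TPM ratio shifted it to 0.28, 0.13, -1.63 and -1.49 in the 4 comparisons. The share of called genes that were higher moved with it, from 49.3% to 66.2% at E12.5 and from 66.1% to 77.3% at E13.5 with TPM. At E14.5 against E13.5 it moved from 78.5% to 2.40% with total counts and 0.834% with TPM, and against E12.5 from 75.0% to 3.88% and 1.56%. At E14.5 against E13.5, 1381 genes were called, beside 11533 with total counts and 16903 with TPM, and against E12.5 1932 beside 10395 and 15396. A fold of at least 4 called 1252, 150, 428 and 606 genes, where the fold of 2 called 3124, 750, 1381 and 1932. The exact test at 0.1 called 362 at E13.5 and 905 at E14.5 against E13.5. At 0.2 it called 1823, 54, 472 and 785, and at 0.4 288, 1, 31 and 72. With at least 10 counts in both libraries, 490 were called at E13.5. Six2, at 6 to 17 counts after E11.5, is limited by depth.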
